A study of Mus musculus with 4 samples.

Results

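Genes of myelin and of the oligodendrocyte lineage were examined in RNA from sorted adult mouse neural stem cells. The genes were taken from a list of 48 symbols, of which 45 matched a gene in the annotation, out of 32564 genes in all. Apod2, Trf2 and Anln2 matched no gene symbol and were not replaced. The 45 genes were placed by textbook knowledge in 4 groups: 4 genes of precursors, 3 of newly formed oligodendrocytes, 24 of myelinating oligodendrocytes, and 14 that oligodendrocytes share with other brain cells. The proteolipid, sulfatide and adhesion genes of myelin thus stood beside genes of the cells that give rise to myelin.

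The data were 4 RNA-seq libraries of a single group. According to the labels, the cells were activated neural stem cells positive for EGFR, Prom1 and GFAP, taken by flow cytometry from untreated gfap:GFP transgenic mice, 3 months old and of a CD1/C57BL/6 mixed background. The design text of the series speaks instead of quiescent stem cells isolated 3 days after injection of artificial cerebrospinal fluid or of antagomers against miR204. No label assigns a library to either injection, so no groups were compared, and if that text applied, the spread between libraries would hold a treatment difference. Whether the libraries are from different animals is not said in the labels. SDs and p-values here therefore measure the spread between these samples, which may be technical.

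Oligodendrocytes arise in the adult brain from dividing precursor cells and, in the subventricular zone, also from neural stem cells. Precursors carry the proteoglycan NG2, then pass through a short-lived newly formed stage in which the transcription factor MYRF switches on the myelin genes, and end as cells that wrap axons in a lipid-rich membrane held together by a small set of abundant proteins. SOX10, OLIG1 and OLIG2 act through this whole course. The gate used here rested on EGFR, Prom1 and GFAP, and no myelin gene was part of it. In RNA from sorted cells in bulk, fewer cells of a type and less RNA per cell cannot be told apart.

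Levels are in TPM, the share of a library's transcripts that a gene holds, corrected for transcript length and scaled to one total for all libraries. The libraries held 16978938 to 23727664 estimated counts. All 14 genes known from neural stem cells and astrocytes were above 1 TPM, including the sorting markers Gfap (149 ± 54.4 TPM, SD, n = 4), Egfr (89.7 ± 23.1 TPM) and Prom1 (23.1 ± 7.01 TPM). All 10 microglia genes, all 10 ependymal genes, 9 of 10 mature neuron genes and 4 of 5 erythroid genes were above 1 TPM too. Over all 19914 genes with a count 62.8% were above 1 TPM, so such counts do not by themselves show a cell type. Of 8 endothelial and mural genes 2 were above 1 TPM, the pericyte gene Pdgfrb (31.8 ± 8.59 TPM) and Pecam1 (3.87 ± 0.373 TPM). The other genes of this list included 4 below 1 TPM, and Cdh5 and Kcnj8 had 0 counts. Only 9.55% of the TPM of Pecam1 came from transcripts annotated as protein-coding, and 90.4% came from a transcript with a retained intron. Library 1, which had the second highest depth, stood apart from libraries 2 to 4 for the oligodendrocyte genes. Some stage differences, library differences and calls are also given without it. The means and SDs of genes, and the group medians of those SDs, include it.

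The sequence upstream of 5 members is shown because these genes bracket the main pattern in the data. Mag, Ugt8a, Opalin and Hapln2 were the members lowest in library 1 relative to the other libraries, and Cspg4 was the member with the largest difference in the other direction. Each run is the 250 bases before the RefSeq transcription start, read 5′ to 3′ on the gene's strand, from the RefSeq promoter table of GRCm38.p6, the assembly of mm10. Capitals mark matches, on either strand, to the SOX motifs ACAAAG and AACAAT, the E-box CAGCTG bound by OLIG factors among others, and the MYRF motif CTGGCAC or CTGGTAC.
Mag, chr7:30914864-30915113 (minus strand): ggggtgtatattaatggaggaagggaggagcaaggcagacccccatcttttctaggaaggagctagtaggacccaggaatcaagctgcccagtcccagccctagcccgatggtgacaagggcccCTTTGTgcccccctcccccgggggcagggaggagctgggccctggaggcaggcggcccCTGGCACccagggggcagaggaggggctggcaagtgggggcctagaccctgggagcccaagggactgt
Ugt8a, chr3:125938653-125938902 (minus strand): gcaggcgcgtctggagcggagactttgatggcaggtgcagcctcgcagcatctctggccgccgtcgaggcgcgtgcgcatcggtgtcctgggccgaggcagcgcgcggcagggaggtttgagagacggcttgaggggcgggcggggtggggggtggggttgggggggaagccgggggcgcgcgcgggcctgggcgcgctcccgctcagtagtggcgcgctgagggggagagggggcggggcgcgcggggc
Opalin, chr19:41077114-41077363 (minus strand): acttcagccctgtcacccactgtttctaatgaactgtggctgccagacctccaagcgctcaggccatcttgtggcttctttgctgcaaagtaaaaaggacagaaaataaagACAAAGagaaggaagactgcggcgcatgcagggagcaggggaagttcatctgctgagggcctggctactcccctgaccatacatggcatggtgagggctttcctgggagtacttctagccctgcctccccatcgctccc
Hapln2, chr3:88027512-88027761 (minus strand): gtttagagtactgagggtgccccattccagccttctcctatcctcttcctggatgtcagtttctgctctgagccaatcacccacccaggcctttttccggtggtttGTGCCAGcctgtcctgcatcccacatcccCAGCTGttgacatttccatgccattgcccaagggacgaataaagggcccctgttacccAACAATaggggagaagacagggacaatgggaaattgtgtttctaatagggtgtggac
Cspg4, chr9:56864854-56865103 (plus strand): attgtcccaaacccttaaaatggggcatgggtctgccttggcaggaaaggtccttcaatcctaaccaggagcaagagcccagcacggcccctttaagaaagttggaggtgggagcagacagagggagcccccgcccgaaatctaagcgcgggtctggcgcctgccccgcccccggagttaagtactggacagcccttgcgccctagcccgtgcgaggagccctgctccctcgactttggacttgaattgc

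The Mag window held ACAAAG on the reverse strand 126 bases before the start and CTGGCAC 68 bases before it. Opalin held ACAAAG 139 bases before the start. Hapln2 held the MYRF motif on the reverse strand 144 bases, the E-box 115 bases and AACAAT 57 bases before the start, and the Ugt8a and Cspg4 windows held none of these motifs. RefSeq windows were found for 33 of the 45 genes, 29 of them within 100 bases of the start of the most abundant coding transcript. The MYRF motif was present in 5 of 33 windows, 4 of them among the 20 of myelinating genes (20%: Mog, Mag, Cnp and Hapln2), against 5.93% of the 32851 windows in the table. ACAAAG was present in 20% of the windows of myelinating genes against 16.5% of all windows, AACAAT in 15% against 9.42%, and CAGCTG in 15% against 13.0%. The GC box GGGCGG was found in 7 of 20 windows of myelinating genes and in 8 of 9 of shared genes, against 32.7% of all windows. The TATA box TATAAA was found in 1 of 33 (Aspa) against 12.4%. These are matches of letters in short windows and were not tested as sites.

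Transcripts of most members were present in the sorted cells. Each gene was tested for a mean of log2(TPM + 1) different from its value at 1 TPM (limma over all 19914 genes with a count, Benjamini-Hochberg adjusted p under 0.05, n = 4). Of the 45 members, 41 were above 1 TPM, against 62.8% of all genes tested. None was below it, against 23.2% of all genes; none was below at an unadjusted p under 0.05 either, and edgeR gave 0 as well. The calls comprised 3 of 4 precursor genes, 2 of 3 newly formed genes, 24 of 24 myelinating genes and 12 of 14 shared genes. The median of the members' mean levels was 25.3 TPM, beside 8.34 TPM over all genes tested. Cspg4, Enpp6, Nkain1 and Nkx2-9 passed in neither direction.

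**Figure D1:**
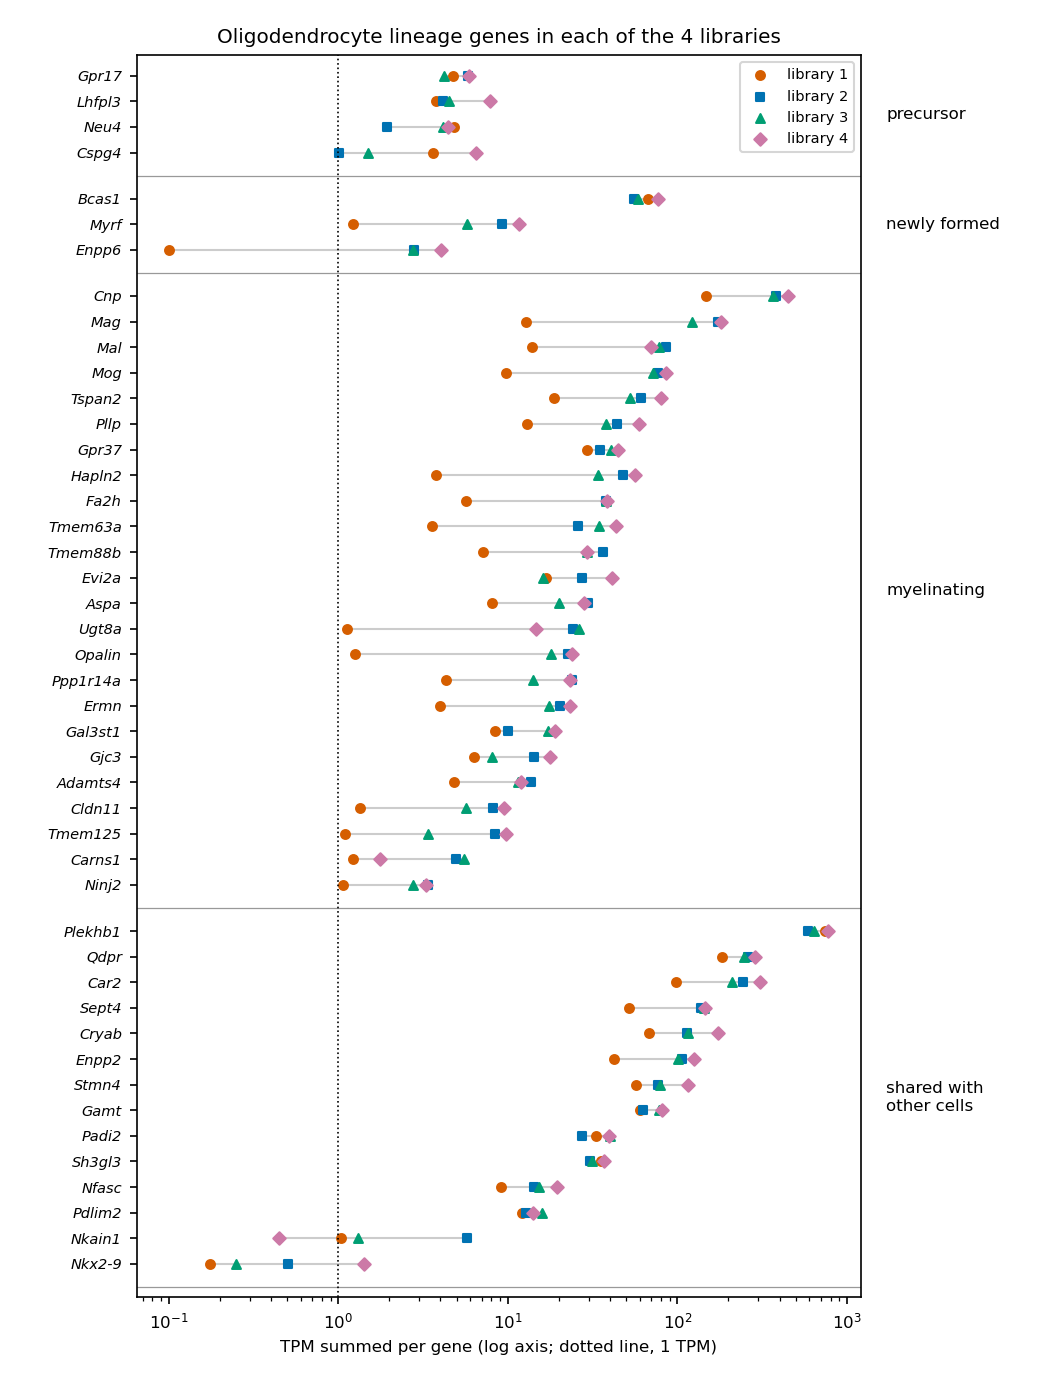
TPM of each of the 45 genes (log axis) in libraries 1 to 4, by group and ordered by mean level; grey lines span the lowest to the highest library and the dotted line marks 1 TPM. Library 1 is the lowest of the 4 for 23 of 24 myelinating genes, and the precursor genes all lie under 10 TPM.

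The precursor genes were low, with means of 3.15 to 5.18 TPM, and differed in how much they varied. Gpr17, a G protein-coupled receptor of precursors committed to differentiate, had 4.77, 5.81, 4.20 and 5.93 TPM in libraries 1 to 4 (5.18 ± 0.835 TPM, SD, n = 4; limma, adjusted p = 0.000406). Its values lay close together in all libraries. Lhfpl3, a membrane protein gene used as a precursor marker, had 3.74, 4.17, 4.48 and 7.79 TPM (5.05 ± 1.85 TPM; limma, adjusted p = 0.00112), and library 4 was the high one.

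Neu4, a sialidase gene of early lineage cells, had 4.79, 1.95, 4.13 and 4.44 TPM (3.83 ± 1.28 TPM; limma, adjusted p = 0.00449). Library 2 was the low one, and Neu4 was the single member that was highest in library 1. With the most abundant transcript only, its call was lost (log2 difference 0.72). Cspg4, which encodes the NG2 proteoglycan that defines precursors and is also made by pericytes, had 3.63, 1.01, 1.49 and 6.48 TPM (3.15 ± 2.5 TPM). Its libraries fell on both sides of a wide gap, with 1 and 4 high and 2 and 3 low, and the mean was not separated from 1 TPM (limma, adjusted p = 0.0675). Without library 2 it passed, with a log2 difference of 1.14, and edgeR placed it above 1 TPM as well (1.70). The pericyte gene Pdgfrb had 37.0, 19.8, 38.8 and 31.6 TPM in libraries 1 to 4. The mural genes Rgs5 and Kcnj8 went the other way, with a mean of 0.204 TPM for Rgs5 and 0 counts for Kcnj8. The part of pericytes in the level of Cspg4 was not tested.

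The 3 newly formed genes did not behave alike. Bcas1, a marker of early myelinating cells, had 67.2, 55.6, 58.3 and 76.8 TPM (64.5 ± 9.63 TPM; limma, adjusted p = 5.06e-08), with library 1 inside the range of the others. Myrf, the transcription factor that turns on myelin genes, had 1.21, 9.2, 5.76 and 11.6 TPM (6.95 ± 4.52 TPM; limma, adjusted p = 0.0109). Library 1 lay 7.30-fold below the mean of the other 3. Enpp6, a choline phosphodiesterase gene used to mark the newly formed stage, had 0.101, 2.78, 2.74 and 4.01 TPM (2.41 ± 1.65 TPM). Its value in library 1 rested on 7.57 estimated counts. Enpp6 did not pass (limma, adjusted p = 0.217), but did so without library 1 (log2 difference 1.05) and with edgeR (1.31).

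Among the structural and adhesion genes of myelin the levels were far higher. Cnp, the cyclic nucleotide phosphodiesterase that keeps cytoplasmic channels in myelin open, lies on chromosome 11 at 100574904 to 100591729 (GRCm38) and had 147, 380, 365 and 449 TPM (335 ± 131 TPM; limma, adjusted p = 8.79e-07). Library 1 was the low one, 2.71-fold below the mean of the others. Mag, the myelin-associated glycoprotein that faces the axon (chromosome 7, 30899176 to 30914873), had 12.8, 174, 123 and 180 TPM (122 ± 77.5 TPM; limma, adjusted p = 0.000282). The gap between library 1 and the others was 12.4-fold.

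Mog, a glycoprotein of the outermost myelin surface and a late marker (chromosome 17, 37010743 to 37023398), had 9.73, 76.4, 71.7 and 85.3 TPM (60.8 ± 34.5 TPM; limma, adjusted p = 0.000237). Mal, a proteolipid that sorts membrane to myelin (chromosome 2, 127633226 to 127656695), had 13.8, 86.0, 78.1 and 70.0 TPM (62.0 ± 32.8 TPM; limma, adjusted p = 8.72e-05). In both genes libraries 2 to 4 lay within a narrow band and library 1 lay apart, 7.99-fold lower for Mog and 5.64-fold lower for Mal. Pllp, a proteolipid related to Mal, had 12.9, 44.2, 38.1 and 58.9 TPM (38.5 ± 19.2 TPM; limma, adjusted p = 4.57e-05).

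Tspan2, a tetraspanin of the oligodendrocyte membrane, had 18.7, 61.0, 52.7 and 79.5 TPM (53.0 ± 25.5 TPM; limma, adjusted p = 2.21e-05), again with library 1 lowest. Gpr37, a receptor gene of differentiating and mature oligodendrocytes that astrocytes also express, had 29.1, 34.9, 40.7 and 44.6 TPM (37.3 ± 6.74 TPM; limma, adjusted p = 2.55e-07). It had the smallest fold between library 1 and the others among the myelinating genes, at 1.37. Hapln2, which links the matrix at the node of Ranvier (chromosome 3, 88021750 to 88027583), had 3.77, 47.4, 34.0 and 56.5 TPM (35.4 ± 23.0 TPM; limma, adjusted p = 0.00139), a 12.2-fold gap.

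Of the lipid enzymes of myelin, Fa2h and Ugt8a had a wide gap between library 1 and the others. Gal3st1 had a smaller one (1.83-fold). Fa2h, the fatty acid hydroxylase that supplies the hydroxylated chains of myelin galactolipids, had 5.68, 37.9, 38.1 and 38.5 TPM (30.0 ± 16.2 TPM; limma, adjusted p = 0.000422). Its libraries 2 to 4 were almost equal and library 1 was 6.72-fold lower. Ugt8a, which makes galactosylceramide (chromosome 3, 125865271 to 125938619), had 1.13, 24.3, 26.3 and 14.7 TPM (16.6 ± 11.5 TPM; limma, adjusted p = 0.00851), and its 19.3-fold gap was the widest of the myelinating genes. Gal3st1, which adds the sulfate to form sulfatide, had 8.44, 10.04, 17.3 and 19.0 TPM (13.7 ± 5.23 TPM). For Gal3st1, libraries 1 and 2 were low and libraries 3 and 4 high. Aspa, which splits N-acetylaspartate to release acetate, had a mean of 21.4 ± 9.86 TPM.

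Opalin, a membrane protein gene found in oligodendrocytes (chromosome 19, 41061710 to 41077113), had 1.26, 22.5, 18 and 23.8 TPM (16.4 ± 10.4 TPM; limma, adjusted p = 0.00689), with 33 estimated counts in library 1. The gap was 17-fold. The other myelinating genes not given library by library were Tmem63a (26.8 ± 17 TPM), a mechanosensitive channel gene, Tmem88b (25.5 ± 12.8 TPM), Evi2a (25.3 ± 11.8 TPM), Ppp1r14a (16.4 ± 9.21 TPM), the cytoskeletal gene Ermn (16.2 ± 8.52 TPM), the connexin Gjc3 (11.6 ± 5.29 TPM) and the aggrecanase Adamts4 (10.5 ± 3.90 TPM). Evi2a was the exception to the order of libraries, with 16.8 TPM in library 1 and 16.0 TPM in library 3.

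The 4 lowest myelinating genes stayed under 10 TPM in each library. Cldn11, the claudin of the radial tight junctions of myelin, had 1.35, 8.21, 5.65 and 9.52 TPM (6.18 ± 3.6 TPM; limma, adjusted p = 0.00882). Tmem125 had 1.09, 8.40, 3.37 and 9.77 TPM (5.66 ± 4.11 TPM; limma, adjusted p = 0.0205). Library 1 was the low one in both, and the call of Tmem125 was lost without library 2 (log2 difference 1.21) or library 4 (1.14). Carns1, which makes carnosine, had 1.23, 4.94, 5.51 and 1.76 TPM (3.36 ± 2.18 TPM; limma, adjusted p = 0.0362), and for this gene libraries 1 and 4 were both low. Its call was lost without library 2 (0.77) or library 3 (0.73). Ninj2, an adhesion gene, had 1.06, 3.38, 2.77 and 3.30 TPM (2.63 ± 1.08 TPM; limma, adjusted p = 0.0296). Its call was lost without library 2 (0.69), 3 (0.76) or 4 (0.70).

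Genes shared with other brain cells were the most abundant group. Their spread between libraries (median SD of log2(TPM + 1) 0.417) was close to that of precursor genes (0.424). Plekhb1, a membrane-associated gene of several glial cells, had 739, 586, 640 and 773 TPM (685 ± 86.9 TPM; limma, adjusted p = 1.03e-08), with library 1 in the upper part of the range. Qdpr, which regenerates tetrahydrobiopterin, had 183, 261, 246 and 288 TPM (244 ± 44.7 TPM). Car2, the carbonic anhydrase of oligodendrocytes, had 98.1, 243, 208 and 305 TPM (214 ± 86.9 TPM). Library 1 was lowest for Qdpr and Car2, by 1.45-fold and 2.57-fold. Sept4, a septin of the filaments that support myelin, had 52.0, 138, 143 and 145 TPM (119 ± 45.0 TPM), with libraries 2 to 4 nearly equal.

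Below these stood the chaperone Cryab (118 ± 43.6 TPM), the lysophospholipase Enpp2 (93.7 ± 36.0 TPM), Stmn4 (82.1 ± 24.4 TPM), the creatine synthesis gene Gamt (70.6 ± 10.5 TPM), the deiminase Padi2 (35.0 ± 5.98 TPM), Sh3gl3 (33.5 ± 3.01 TPM), the neurofascin gene Nfasc (14.6 ± 4.26 TPM) and Pdlim2 (13.7 ± 1.71 TPM). Enpp2 is also a gene of choroid plexus. Among 6 genes known from choroid plexus, 3 were above 1 TPM, against 62.8% of all genes tested. Folr1 (15.2 ± 7.03 TPM) and Otx2 (6.23 ± 3.46 TPM) were the highest. The other 3 were below 1 TPM, against 23.2% of all genes tested, among them Ttr (0.488 ± 0.454 TPM). The summed level of the 6 genes was 16.4 TPM in library 1 and 26.9 to 34.5 TPM in the others, but the genes did not move together. Of the 3 above 1 TPM, Folr1 was lowest in library 1, Otx2 in library 2 and Clic6 in library 4. Of those below it, Ttr was highest in library 1 (1.09 TPM) and Kl was lowest there (0.0543 TPM). The part of choroid plexus in the level of Enpp2 was not tested. Nkain1, an interactor of the sodium pump, had 1.04, 5.71, 1.30 and 0.444 TPM (2.12 ± 2.42 TPM; limma, adjusted p = 0.383). Library 2 alone was high. Nkx2-9, a homeobox gene, had 0.176, 0.502, 0.25 and 1.42 TPM (0.588 ± 0.575 TPM; limma, adjusted p = 0.0986). Library 4 alone exceeded 1 TPM, and without it Nkx2-9 was called below 1 TPM (log2 difference -0.62).

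The stage groups were then compared within libraries, using the median of log2(TPM + 1) over the genes of each group. Groups hold different genes, so the differences describe these genes and were not tested. Median levels in libraries 1 to 4 were 4.25, 3.06, 4.17 and 6.21 TPM for precursor genes, 1.21, 9.2, 5.76 and 11.6 TPM for newly formed genes, and 6.02, 26.5, 23.2 and 28.5 TPM for myelinating genes. Myelinating genes were therefore the higher group in each library. Shared genes had medians of 47.0, 69.9, 78.3 and 98.4 TPM.

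Myelinating genes exceeded newly formed genes by 1.66, 1.43, 1.82 and 1.22 on the log2 scale (1.54 ± 0.26, SD, n = 4). With the added 1, that difference varied little between libraries. It rested on Myrf, the median newly formed gene in each library. At 1.21 TPM in library 1, Myrf lies where the added 1 shrinks a difference, and the ratio of sums given below was not constant. The difference was 0.53 with CPM, counts scaled to the library total without length correction. With means over genes in place of medians it was 0.89. Against precursor genes the myelinating genes were higher by 0.42, 2.82, 2.21 and 2.04 (1.87 ± 1.02), and by 2.36 without library 1. Library 1 was the low one by a wide margin. Newly formed genes differed from precursor genes by -1.24, 1.39, 0.39 and 0.81 (0.34 ± 1.13), an average within its own spread. It was positive in 3 of 4 libraries, 0.86 without library 1 and -0.01 without library 2.

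Sums over each group are carried by its most abundant genes. Precursor genes summed to 16.9, 12.9, 14.3 and 24.6 TPM, newly formed genes to 68.5, 67.5, 66.8 and 92.5 TPM, and myelinating genes to 324, 1215, 1071 and 1362 TPM. The ratio of myelinating to precursor sums was 19.1 in library 1 and 93.9, 74.8 and 55.3 in libraries 2 to 4. The ratio of newly formed to precursor sums was 4.05, 5.22, 4.67 and 3.75, so library 1 lay inside the range of the others. Bcas1 made up most of the newly formed sum, whereas the median of that group was Myrf in each library. The ratio of myelinating to newly formed sums was 4.72 in library 1 and 18, 16.0 and 14.7 in the others.

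**Figure D2:**
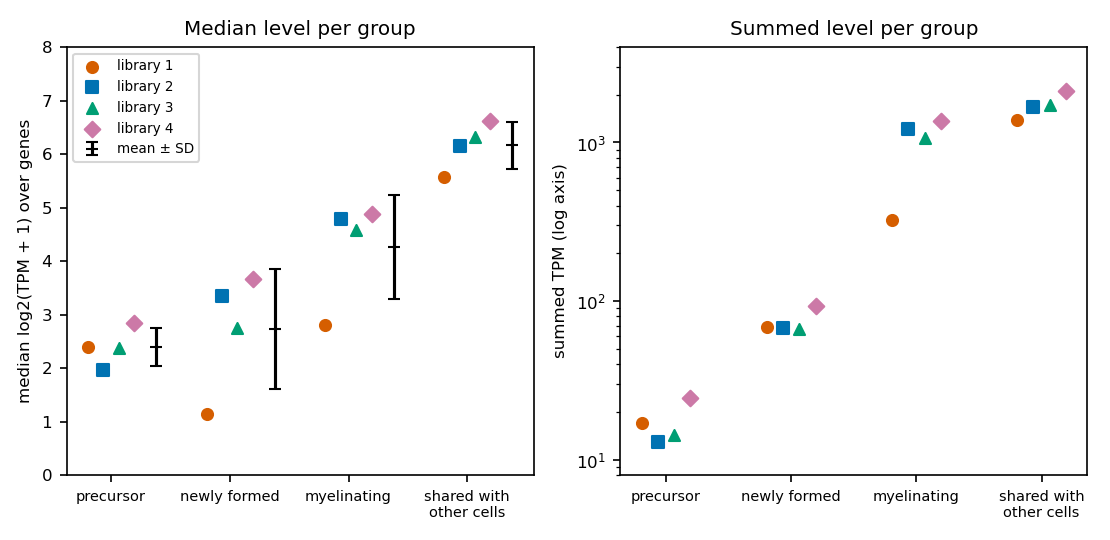
Left, the median of log2(TPM + 1) over the genes of each group in each library, with the mean ± SD of the 4 libraries; right, the summed TPM of each group (log axis). The myelinating sum is 324 TPM in library 1 and 1071 to 1362 TPM in libraries 2 to 4, while the precursor sums run from 12.9 to 24.6 TPM.

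By the median member, library 1 lay furthest from the rest, and the distance differed between the groups. Relative to the mean of the other 3 libraries on the log2 scale, the median member stood at -1.20, 0.44, 0.18 and 0.71 in libraries 1 to 4. Over the 14087 genes with a mean of at least 1 TPM the same medians were -0.07, -0.04, 0.14 and 0.02. With library 1 left out, libraries 2 and 3 differed from the remaining libraries by -0.05 and -0.20, so their positive values rested on library 1. By group, library 1 differed by -1.87 for myelinating genes, -1.91 for newly formed genes, -0.51 for shared genes and 0.15 for precursor genes. The newly formed value was that of Enpp6, which had 7.57 estimated counts in library 1. Myrf stood at -2.11 and Bcas1 at 0.09.

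Of the 44 members with a mean of at least 1 TPM, 35 were lowest in library 1, against 32.2% of all such genes. This held for 23 of 24 myelinating, 2 of 3 newly formed, 9 of 13 shared and 1 of 4 precursor genes. A level at least 2-fold lower in library 1 than the mean of the others, on the log2(TPM + 1) scale, was found for 25 of 44 members, against 6.1% of all genes; these were 20 myelinating, 2 newly formed, 3 shared and 0 precursor genes. Library 4 held the highest value for 32 of 44 members, against 27.4% of all genes. The SD of log2(TPM + 1) between libraries had a median of 0.997 over myelinating genes and 0.975 over newly formed genes. The newly formed value was that of Enpp6. The median was 0.424 over precursor genes and 0.417 over shared genes, beside 0.300 over all genes with a mean of at least 1 TPM.

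Further genes of the lineage that are not on the list were compared in the same way. Their median difference in library 1 was -1.30 for the myelin genes. Of 14 further myelin genes 13 were lowest in library 1 and 8 were at least 2-fold lower. The iron carrier Trf had 41.1, 265, 230 and 382 TPM and the lipocalin Apod had 15.4, 78.3, 70.7 and 128 TPM. In both library 1 was the low one, by 7.11-fold for Trf and 6.02-fold for Apod. Only 15.2% of the TPM of Apod came from transcripts annotated as protein-coding, and 82.8% came from a transcript with a retained intron. Anln had 16.1, 20.6, 20.7 and 21.7 TPM, and the tetraspanin Cd9, which many cell types express, had 512, 489, 635 and 568 TPM.

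Against 62.8% of all genes tested, 8 of 9 transcription factors of the lineage were above 1 TPM. Their median difference in library 1 was -0.21, and in none was library 1 at least 2-fold lower on the log2(TPM + 1) scale. Olig1 had 96.3, 91.1, 123 and 123 TPM and Olig2 had 37.7, 38.0, 27.1 and 52.7 TPM. Sox8 had 132, 121, 133 and 105 TPM, so library 1 lay at or inside the range of the others for Olig1, Olig2 and Sox8. Sox10 had 10.6, 20.2, 12.6 and 29.1 TPM and Nkx6-2 had 23.5, 38.4, 34.5 and 48.0 TPM, both lowest in library 1. OLIG1, OLIG2 and SOX8 are also made by cells outside the oligodendrocyte lineage. Tcf7l2 had a mean of 31.2 ± 6.23 TPM, Nkx2-2 of 6.46 ± 1.97 TPM and Zfp536 of 3.99 ± 2.28 TPM, and Zfp488 passed in neither direction (1.12 ± 0.539 TPM; limma, adjusted p = 0.810). Of 6 further precursor genes 5 were above 1 TPM, against 62.8% of all genes tested. The highest were Ptprz1 (216 ± 36.7 TPM), which astrocytes also express, and C1ql1 (20.6 ± 4.76 TPM). The median difference of the 6 genes in library 1 was -0.05.

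Genes of some other cell types were also lower in library 1. Relative to the other libraries, the median difference in library 1 was -1.41 for 10 microglia genes, -0.77 for 10 ependymal genes and -3.65 for 5 erythroid genes. The summed microglia level was 193 TPM in library 1 and 413 to 594 TPM in the others, the ependymal sum 646 against 866 to 1297 TPM and the erythroid sum 59.9 against 449 to 2342 TPM. Mature neuron genes (0.41) and neuroblast genes (0.53) went the other way, with sums of 1387 against 1114 to 1161 TPM and 415 against 222 to 288 TPM. The 14 stem cell and astrocyte genes differed by -0.10, and 2 of them were lowest in library 1. In libraries 2 to 4 the sums were 1215, 1071 and 1362 TPM for myelinating genes and 413, 594 and 552 TPM for microglia genes. Ependymal sums there were 1297, 866 and 1069 TPM and erythroid sums 641, 449 and 2342 TPM. The microglia and ependymal sums thus did not keep the order of the myelinating sums, and the erythroid sums did. The part of these cell types in the level of the myelin genes was not tested.

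**Figure D3:**
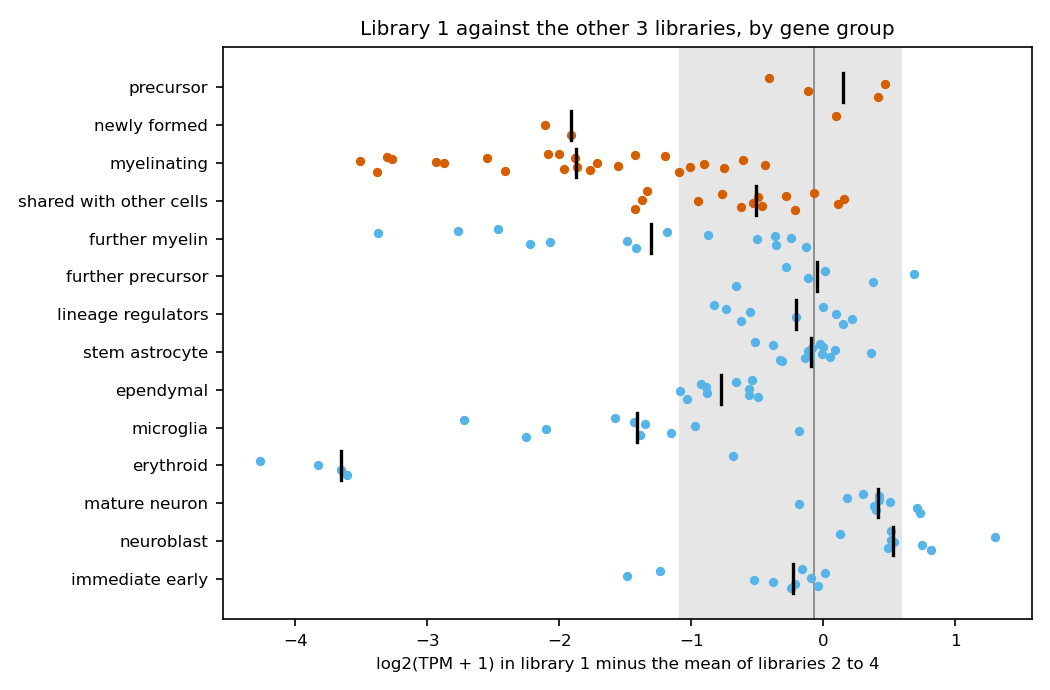
Level of each gene in library 1 minus the mean of libraries 2 to 4, as a log2 difference, for the 4 groups of members (orange) and for lists of other genes (blue); black bars are list medians, and the grey band spans the 5th (-1.09) to the 95th percentile (0.59) of all genes of at least 1 TPM around their median. Myelinating genes have a median of -1.87, precursor genes 0.15 and stem cell and astrocyte genes -0.10.

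Ratios between members were taken within each library for 18 fixed pairs, as log2 ratios of TPM + 1. The added 1 shrinks a ratio whose gene lies near or under 1 TPM. Ratios of TPM without it, added after the data were seen, are therefore given for some of the pairs. Hapln2 stood to Mog at -0.87 ± 0.28 (SD, n = 4) and Mog to Mag at -0.84 ± 0.36, with the same sign in 4 of 4 libraries although all of these genes were lowest in library 1. Gpr37 exceeded Gpr17 by 2.63 ± 0.29. Mal exceeded Pllp by 0.10, 0.94, 1.02 and 0.25 in libraries 1 to 4, so this ratio was not constant. Aspa over Mog (-1.24 ± 0.68) and Myrf over Sox10 (-1.42 ± 0.65) kept their sign. In library 1 Myrf over Sox10 was -2.39 with the added 1 and -3.12 without it.

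Cldn11 stood to Cnp at -5.64 ± 0.29, and without the added 1 at -6.77 in library 1 and -5.53, -6.01 and -5.56 in libraries 2 to 4. In TPM, Cldn11 was thus lower against Cnp in library 1 than in any other library. Pairs with Enpp6 depended on the added 1 most, because Enpp6 had 0.101 TPM in library 1. Mog over Enpp6 was 3.29 in library 1 and 4.36, 4.28 and 4.11 in the others with it, but 6.59 against 4.78, 4.71 and 4.41 without it. Library 1 was therefore the lowest on one scale and the highest on the other, and the same held for Opalin over Enpp6 (1.04 against 2.31 to 2.64 with the added 1, 3.64 against 2.57 to 3.02 without it). Enpp2 over its relative Enpp6 was 5.29 in library 1 and 4.66 to 4.83 in the others, and 8.70 against 4.97 to 5.26 without the added 1. Bcas1 over Enpp6 was 5.95 in library 1 and 3.90 to 3.99 in the others, and 9.38 against 4.26 to 4.41 without it.

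Pairs that set Mog against a precursor gene were lowest in library 1 on both scales. Mog exceeded Gpr17 by 0.90 in library 1 and by 3.51, 3.80 and 3.64 in libraries 2 to 4, and by 1.03 against 3.72, 4.09 and 3.85 without the added 1. Mog exceeded Cspg4 by 1.21 in library 1 and by 5.27, 4.87 and 3.53 in the others, and by 1.42 against 6.24, 5.59 and 3.72 without it. Enpp6 over Cspg4 (-2.07, 0.91, 0.59 and -0.58) and Gpr17 over Cspg4 (0.32, 1.76, 1.06 and -0.11) took both signs. Without the added 1 Enpp6 over Cspg4 was -5.17 in library 1.

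Pairs within a synthesis route also separated. Ugt8a stood below Fa2h in 4 of 4 libraries (-1.03 ± 0.55). Against Gal3st1, which acts on the product of Ugt8a, it differed by -2.15, 1.20, 0.58 and -0.35, so that the order of these enzymes was not the same in all libraries. In library 1 and without the added 1, Ugt8a stood at -2.33 to Fa2h and at -2.90 to Gal3st1.

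**Figure D4:**
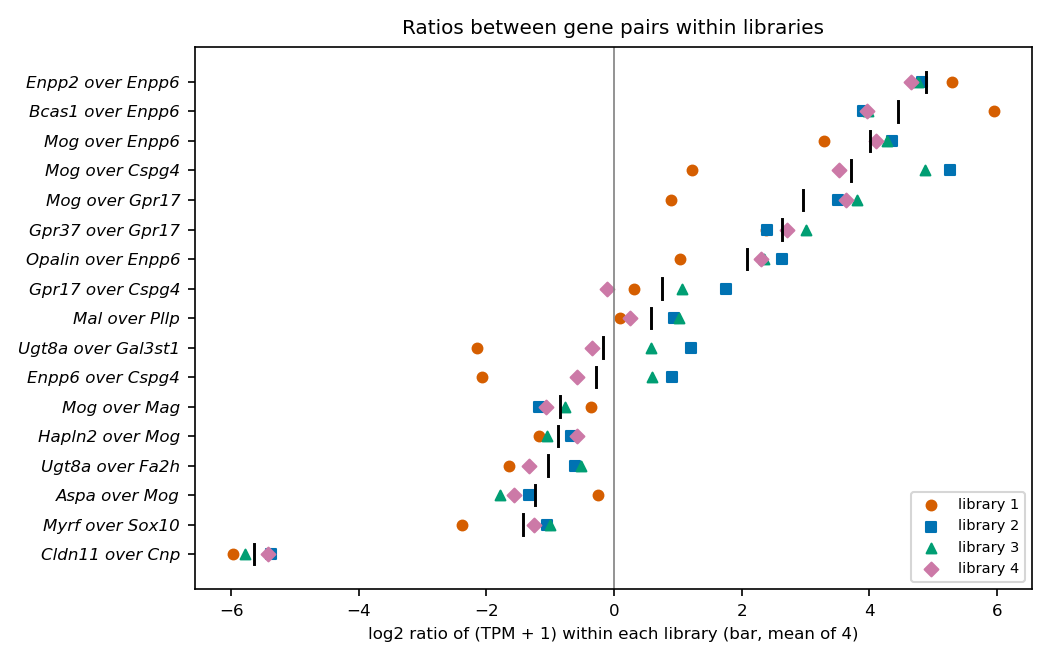
The log2 ratio of (TPM + 1) for the gene pairs reported, in each of the 4 libraries, with a black bar at the mean. Mog over Gpr17 is 0.90 in library 1 and 3.51 to 3.80 in libraries 2 to 4; the added 1 shrinks the ratios with Enpp6 in library 1, where Enpp6 had 0.101 TPM.

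A gene sum can rest on transcripts that do not code for protein. At least 90% of the TPM came from transcripts annotated as protein-coding in 35 members, and 8 members had 50 to 90%. Hapln2 had 30.6%, with 65.8% in transcripts with a retained intron; the leading one held 35.0% of the gene's TPM. The coding form had 0.624, 15.4, 8.36 and 18.9 TPM in libraries 1 to 4, so library 1 was low for the coding form too. Sh3gl3 had 45.6%, with 45.9% in transcripts annotated for nonsense-mediated decay. Among the other myelin genes, 57.3% of Pllp and 82.1% of Cnp came from coding transcripts, and the rest from processed transcripts without a coding sequence. The estimate divides reads between overlapping transcripts of one gene, so these shares are less certain than the gene sums.

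**Figure D5:**
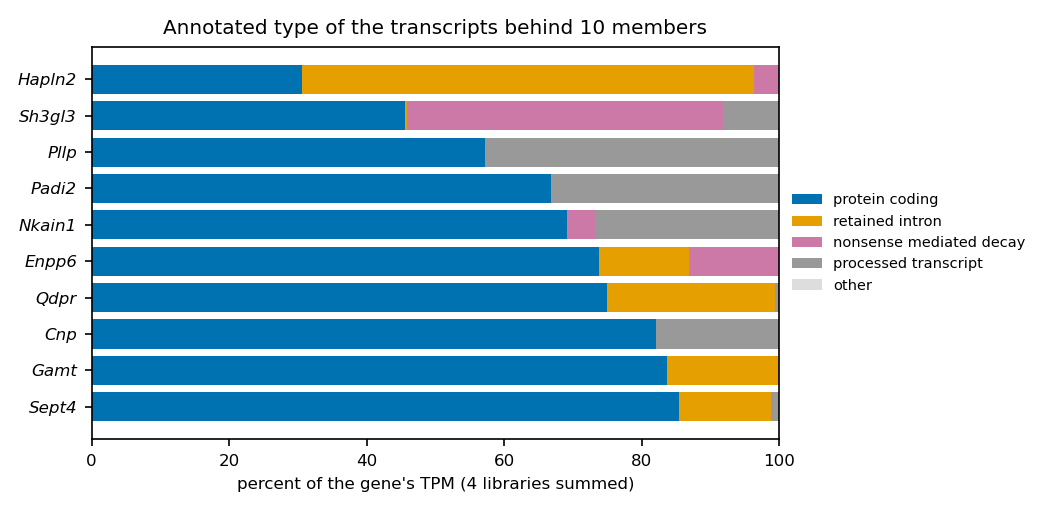
Percent of each gene's TPM, summed over the 4 libraries, by annotated transcript type for the 10 members with under 90% from protein-coding transcripts. Hapln2 (30.6%) and Sh3gl3 (45.6%) are the genes with less than 50% from protein-coding transcripts.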

How the data were processed

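RNA from 4 libraries of sorted cells was amplified with a low-input cDNA kit and sequenced as paired ends, per the labels' protocols. Kallisto and sleuth were used with build mm10, per the submitters' processing notes; for their versions and the transcript release, the sources used here give nothing. Each deposited file holds, per transcript, an estimated count, a TPM value and an effective length made by the authors' quantification. Reads shared by transcripts are divided by estimate, and amplified reads are not independent molecules.

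TPM was summed per gene with GENCODE M21 (GRCm38), where 98294 of 99567 transcripts matched and 32564 genes resulted. Transcripts without a match took up 2.59 to 4.56% of a library's TPM and 0.530 to 0.619% of its counts. The 19914 genes with a count were tested with limma 3.58.1 (R 4.3.3) on log2(TPM + 1), two-sided, against 1 TPM. In simulated counts with a dispersion of 0.1, run over 19914 genes, 80% of 40 genes set to 2 TPM were called above 1 TPM by limma. The same was true of 97.5% of 40 set to 4 TPM, and of 40 set to 1 TPM, 2.5% were called in each direction. These shares hold for that dispersion. They were not checked at the spread of the myelinating and newly formed genes (median SD of log2(TPM + 1) 0.997 and 0.975). Alternatives were edgeR 4.0.16 on rounded estimated counts, DESeq2 1.42.0 size factors, TMM factors, a pseudocount of 0.1, a mean of at least 5 counts, rescaling, transcript subsets, means and other stage assignments, CPM and leaving out each library. For gene pairs, TPM without a pseudocount was added after the data were seen. No 2 libraries held identical values, and all 4 were counted as samples; counts of amplified reads cannot tell repeat libraries of one sample from separate samples.

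Of the 18 gene pairs, 1 is not reported here, nor are some genes outside the list. Members and lists were chosen with earlier results of these data known. By the naming rule, values are given by library for precursor and newly formed genes, the 8 highest and 4 lowest myelinating genes, the 4 highest and 2 lowest shared genes and genes called in neither direction. Other members are given by mean and SD. Ugt8a, Opalin, Fa2h, Gal3st1 and Evi2a, the printed promoters and the count of genes 2-fold lower in library 1 were chosen after their values were seen.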

Additional observations from a re-analysis of the deposited data

Results flagged for a closer look

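Among values with 4 libraries each, a library was marked where its gap to the nearest other, as a share of the whole range of log2(TPM + 1), was above Dixon's 95% critical value. Chance marks about 1 in 20 groups. Of 70 values tested 10 were marked, among them 7 of 45 members, each lowest in library 1. Over the 14087 genes with a mean of at least 1 TPM, 5.81% were marked, 1.14% with library 1 lowest. The share of the range was 0.918 for Mog, 0.851 for Mag, 0.889 for Opalin, 0.886 for Mal, 0.855 for Tmem88b, 0.991 for Fa2h and 0.951 for Sept4. The median of the myelinating genes had a share of 0.854, and the ratio of Mog over Gpr17 one of 0.897, both lowest in library 1. The ratio of Bcas1 over Enpp6 had a share of 0.959, highest in library 1.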

How the results depend on the processing

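In all, 792 values were computed under alternative settings, many of them ratios or differences that have no call. Of the levels of single genes, none reversed a call and 479 kept it. The number of members above 1 TPM was 39 to 43 over all settings and 39 to 42 with 1 library left out, and 37 members were above it in each setting in which they were tested. The difference between myelinating and newly formed genes moved to 0.53 with CPM without length correction and to 0.89 with means over genes; with 1 library left out it ranged from 1.44 to 1.64. Myelinating minus precursor ranged from 1.56 to 2.36 and newly formed minus precursor from -0.01 to 0.86 with 1 library left out. The difference of library 1 for all members ranged from -1.39 (pseudocount 0.1) to -1.13 (without library 2). Rescaling to nuclear protein-coding genes shifted the median of all genes by 0.41 on the log2 scale. For single genes, 7 calls were gained and 9 lost over the alternatives; of the ratios of pairs, 25 moved by 1 SD or more and 137 did not. The cause of these shifts was not tested. At 7.57 estimated counts, the value of Enpp6 in library 1 has a large counting error. No paired analysis was possible because the labels give 1 group.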

Other observations

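The genes lowest in library 1 relative to the other libraries were ranked over all 14087 genes with a mean of at least 1 TPM. Among the 50 lowest were 8 myelinating members, 4 further myelin genes, 4 erythroid genes and 2 microglia genes, and no gene of the precursor, stem cell or astrocyte lists. Among the 200 lowest were 17 members, 15 of them myelinating and 2 newly formed. Several genes outside every list stood in the same range. Ptpn6, a phosphatase of blood cells, had 0.310, 5.38, 9.45 and 7.79 TPM in libraries 1 to 4. Cd83, an immune cell surface gene, had 2.87, 27.1, 16.4 and 28.4 TPM. Selplg, the P-selectin ligand gene of leukocytes and microglia, had 4.46, 29.4, 58.4 and 20.6 TPM. Fhad1 had 2.01, 18.3, 14.1 and 21.5 TPM and Pmepa1 had 5.52, 25.2, 39.4 and 60.5 TPM. Library 1 was the lowest in each of these 5 genes, which were chosen after their values were seen.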
